A study of Mus musculus with 6 samples.

Results

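The 6 genes described here encode phosphatases that remove phosphate from tyrosine, or from both threonine and tyrosine, of other proteins: Dusp1, Dusp2, Dusp5, Dusp8, Ptpn5 and Ptpn14. They were chosen by name from a deposited table of 345 genes, and all 6 were found in it once each. The cells were RAW264.7, a mouse macrophage line, in all 6 libraries. Total RNA was sequenced in 3 libraries of untreated Control cells and in 3 of the G scaffold group, whose cells spent 48 h in 5-fold diluted extract of a gyroid scaffold printed from a zinc alloy with 0.8 weight percent lithium. The extract carries whatever the scaffold released into medium, so zinc, lithium and other products act together, and one line stands for macrophages. The sample labels enter these 2 conditions under genotype, although they differ by treatment. The labels do not say that replicates were separate cultures, so p-values measure only the spread between these samples, which may be technical. The comparison asks which phosphatase transcripts differ between extract-treated and untreated macrophages.

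The MAP kinases ERK, JNK and p38 are switched on by phosphorylation of a threonine and a tyrosine in the activation loop. Dual-specificity phosphatases of the MAP kinase phosphatase class remove both phosphates and switch the kinase off. Several of them are transcribed in response to the signal that they end, which makes them a feedback arm. In macrophages this arm is best known for limiting the cytokine response to bacterial products, with Dusp1 as its main example. Classical tyrosine phosphatases such as Ptpn5 and Ptpn14 act on phosphotyrosine alone.

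The promoters of the 4 dual-specificity members are shown first, because this family is known for transcriptional induction. RefSeq windows from 250 bases before to 50 bases after the start site (GRCm38.p6) were matched for all 6 genes, with 7 windows in all since Ptpn5 has 2. The windows below are written 5′ to 3′ on the gene's own strand. Capitals mark the CRE palindrome TGACGTCA, its half-site TGACG on either strand, and the CArG box. A CRE is the element known to bind CREB and ATF factors, and a CArG box the element known to bind SRF. The windows are chr17:26508423-26508722 on the minus strand for Dusp1, chr2:127335909-127336208 on the plus strand for Dusp2, chr19:53528895-53529194 on the plus strand for Dusp5 and chr7:142095235-142095534 on the minus strand for Dusp8.
Dusp1: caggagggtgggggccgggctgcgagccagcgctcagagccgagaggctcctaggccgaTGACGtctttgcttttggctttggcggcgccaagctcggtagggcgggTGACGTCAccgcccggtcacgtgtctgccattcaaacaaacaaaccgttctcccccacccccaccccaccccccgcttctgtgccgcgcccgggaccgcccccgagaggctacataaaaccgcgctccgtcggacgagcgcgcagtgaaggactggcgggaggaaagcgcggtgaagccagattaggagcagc
Dusp2: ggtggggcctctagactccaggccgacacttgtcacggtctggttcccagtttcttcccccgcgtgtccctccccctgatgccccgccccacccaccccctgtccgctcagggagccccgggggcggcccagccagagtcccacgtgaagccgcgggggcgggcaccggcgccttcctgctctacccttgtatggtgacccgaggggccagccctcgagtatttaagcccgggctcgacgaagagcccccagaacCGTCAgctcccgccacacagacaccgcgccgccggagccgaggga
Dusp5: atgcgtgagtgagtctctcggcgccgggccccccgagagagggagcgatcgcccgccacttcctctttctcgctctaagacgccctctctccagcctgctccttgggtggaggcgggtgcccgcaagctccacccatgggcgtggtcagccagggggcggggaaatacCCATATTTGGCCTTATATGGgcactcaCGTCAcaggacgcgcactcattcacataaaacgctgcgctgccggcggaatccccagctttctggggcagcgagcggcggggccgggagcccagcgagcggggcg
Dusp8: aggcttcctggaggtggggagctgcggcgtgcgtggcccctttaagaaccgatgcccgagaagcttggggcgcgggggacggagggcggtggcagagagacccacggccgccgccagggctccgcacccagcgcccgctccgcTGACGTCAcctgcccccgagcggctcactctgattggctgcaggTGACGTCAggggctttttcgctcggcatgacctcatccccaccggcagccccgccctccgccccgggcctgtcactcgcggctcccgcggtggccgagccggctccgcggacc

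The CRE palindrome occurred once in the Dusp1 window, from 143 to 136 bases before the start site, and 2 times in the Dusp8 window. Of 32851 RefSeq promoter windows of the same length, 1.79% held it on either strand, and 4.93% of the 223 listed genes with a window did so in at least 1 window. The half-site, which each palindrome also contains, occurred in 5 of the 6 genes, with Ptpn5 as the exception, against 20.8% of all windows and 33.2% of the listed genes. Dusp5 held 2 adjoining CArG boxes, and 1.63% of all windows and 4.48% of the listed genes held at least 1. The metal response element of MTF1, searched as TGCACNC or TGCGCNC on both strands, occurred in the windows of Dusp1 and Ptpn14, in 25.7% of all windows and in 34.5% of the listed genes. The AP-1 motif TGANTCA occurred in none of the 7 windows in 7.81% of all windows and in 13.5% of the listed genes. The E-box CACGTG occurred in Dusp1 and Dusp2, in 7.15% of all windows and in 10.8% of the listed genes. These motifs were chosen with the promoters in view. The GC content of the windows of Dusp1, Dusp2, Dusp5, Dusp8 and Ptpn14 lay between 66.7% and 78.3%, against a median of 52.7% over all windows, so the shares are not matched for base composition. A match is a string of letters and not a measured binding site.

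Values below are normalized counts, which are the reads of a gene divided by one size factor for its library. Over the listed genes the libraries held from 88836 to 156029 reads, of which the 6 phosphatase genes took 274 to 308 in Control against 1785 to 1830 in the G scaffold group. The authors' table lists only genes past their own thresholds on these same libraries, so every test given here repeats a selection already made and is not independent evidence. In the limma test all 6 genes were called higher and none lower, where a call needs a log2 fold change of 1 or more in size and an adjusted p-value no greater than 0.05. Of all listed genes 82.6% were called higher and 15.9% lower. Nothing about the 6 genes is read from these counts. Fold changes are on the log2(normalized count + 1) scale, which understates the change of genes with few reads. In bulk RNA, more cells that carry a transcript and more transcript in each cell cannot be told apart.

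Of 10 macrophage markers only Mpeg1 was among the listed genes, at 8717 to 9896 normalized counts in Control against 4161 to 4793 in the G scaffold group. Of the markers of osteoblasts or fibroblasts, epithelium, T cells, endothelium and neurons (8, 4, 4, 3 and 4 genes), Col1a1 and Tubb3 were listed. Col1a1 was at 0 in every Control library and at 4.89 to 8.68 in the G scaffold libraries. Tubb3 was at 0 to 0.955 in Control against 2.94 to 14.5 in the G scaffold group. The part of these low signals in the phosphatase values was not tested, and the other markers were not analysed here.

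Dusp1 encodes a nuclear phosphatase, also called MKP-1, that acts mainly on p38 and JNK. Its normalized count was 105, 127 and 109 in the Control libraries, in the order of replicates 1, 2 and 3, and 986, 888 and 899.7 after treatment. All 3 treated libraries lay above all 3 Control libraries, and the lowest treated value was 7.01 times the highest Control value; 82.9% of the listed genes were separated in this way and direction. Dusp1 rose from 114 ± 11.4 to 924 ± 53.6 normalized counts (SD, n = 3 per group). The log2 fold change was 3.02 with a standard error of 0.137 (limma, Benjamini-Hochberg adjusted p = 8.6e-06). Among the G scaffold replicates its variance was 3.13 times that of read counting alone, and in Control 1.09 times.

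Dusp2, a nuclear phosphatase first known from activated lymphocytes and found mainly in blood cells, had the highest level of the 6 in Control. Its Control values were 129, 129.9 and 125 normalized counts, and its G scaffold values were 414, 349 and 375. The Control values were the closest together of any of the 6 genes, with a coefficient of variation of 1.98%. Their variance was only 0.051 times that of read counting alone, so this closeness is not read as a property of the gene. Among the G scaffold replicates the variance of Dusp2 was 2.87 times that of read counting alone. Dusp2 rose from 128 ± 2.53 to 379.5 ± 32.8 normalized counts. Its log2 fold change was 1.56 with a standard error of 0.129 (limma, adjusted p = 7.72e-05). This was the smallest change of the 6 genes as deposited, but Dusp8 was lower with a pseudocount of 10 (0.99 against 1.49) and without Control replicate 2 (1.47 against 1.57). It lay 0.31 below the median of all listed genes, but 0.44 above it with a pseudocount of 10 and 0.35 above it among the genes with at least 10 in every library. With TMM factors or column totals over the listed genes in place of the authors' size factors, it was 0.079 or 0.91 and no longer called. Both scalings are computed over genes listed for having changed, most of them upward, so they remove part of a shared rise. A call lost with them therefore does not decide whether a gene changed.

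Dusp5 encodes a nuclear phosphatase selective for ERK. Its normalized count was 38.8, 34.6 and 46.8 in Control and 313, 358 and 323 after treatment. The groups did not overlap. Dusp5 was highest in G scaffold replicate 2, where Dusp1 and Dusp2 were lowest. Dusp1 held 920 reads there and 919 in replicate 3, so its order is within counting error. The variance of Dusp5 among these replicates was 1.74 times that of read counting alone. Dusp5 rose from 40.1 ± 6.20 to 331 ± 23.8 normalized counts. Its log2 fold change was 3.02 with a standard error of 0.159 (limma, adjusted p = 1.26e-05). Among the 151 listed genes with a Control mean of at least 20, Dusp5 and Dusp1 stood at ranks 8 and 9 by log2 fold change, and Dusp2 at rank 36.

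Dusp8, which encodes a phosphatase of JNK and p38 known mainly from brain and heart, was a low transcript. Its Control libraries held 6, 2 and 7 reads and its G scaffold libraries 22, 19 and 18. In normalized counts these were 5.96, 2.16 and 6.69 against 22.2, 18.3 and 17.6, with no overlap. Dusp8 rose from 4.94 ± 2.43 to 19.4 ± 2.45 normalized counts. Its log2 fold change was 1.87 with a standard error of 0.357 (limma, adjusted p = 0.00224). The ratio of the summed reads was 3.84, with an exact 95% interval from 2.15 to 7.29 that covers counting error only. Its call was lost with TMM factors (0.56) and with a pseudocount of 10 (0.99).

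**Figure D1:**
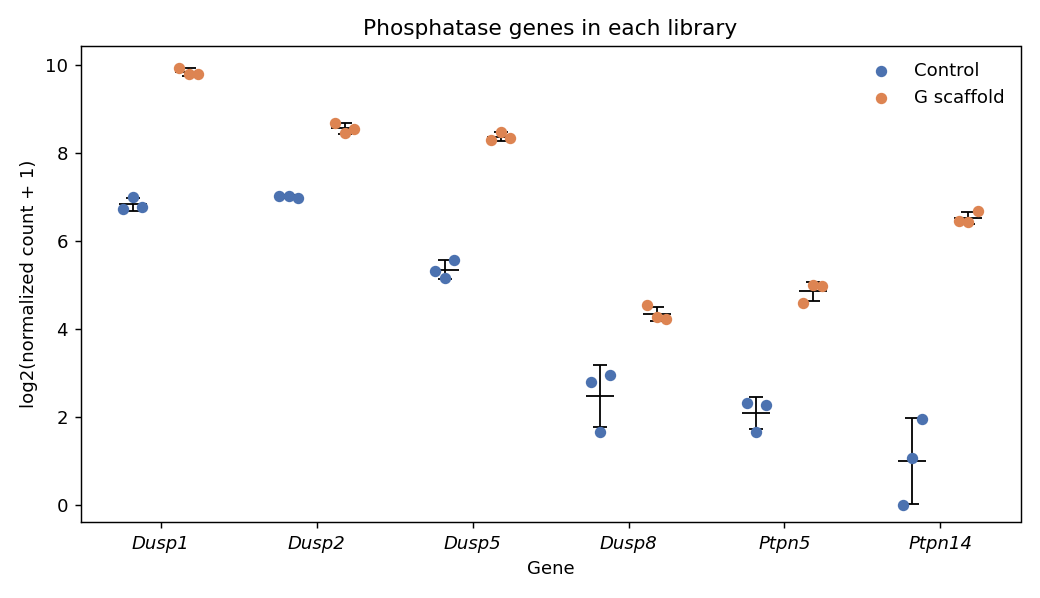
Each point is one library (Control in blue, G scaffold in orange), plotted as log2(normalized count + 1) on the vertical axis for each gene on the horizontal axis, with bars for the mean ± SD of 3 libraries. In all 6 genes the G scaffold points lie above the Control points, and the Control points of Ptpn14 and Dusp8 are the most spread out.

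Ptpn5 encodes STEP, a tyrosine phosphatase known from neurons of the striatum that can dephosphorylate ERK. Its Control libraries held 4, 2 and 4 reads, or 3.97, 2.16 and 3.82 normalized counts. The G scaffold libraries held 23, 32 and 31 reads, or 23.2, 30.9 and 30.3 normalized counts. The groups did not overlap, with G scaffold replicate 1 the lowest of the treated libraries. Ptpn5 rose from 3.32 ± 1.0 to 28.1 ± 4.29 normalized counts. Its log2 fold change was 2.77 with a standard error of 0.230 (limma, adjusted p = 7.72e-05). The ratio of the summed reads was 8.39 (exact 95% interval from 4.35 to 18.1).

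Ptpn14 encodes a tyrosine phosphatase with a FERM domain, known as a regulator of YAP rather than of MAP kinases. It was close to absent from Control, with 0, 1 and 3 reads, and had 86, 88 and 104 reads in the G scaffold libraries. Each Control library was thus at or under 3 reads, the limit that a count of 0 allows, which equals 2.87 to 3.25 normalized counts. In normalized counts the libraries stood at 0, 1.08 and 2.87 in Control against 86.7, 84.9 and 102 in the G scaffold group. Ptpn14 rose from 1.32 ± 1.45 to 91.1 ± 9.29 normalized counts, with a fitted log2 fold change of 5.52 (standard error 0.476, adjusted p = 8.77e-05, limma). That value depends on the pseudocount, being 7.01 with 0.1 and 3.16 with 10. The ratio of the summed reads was 67.8, with an exact 95% interval from 26.2 to 251. Ptpn14 had the largest change of the 6 genes and stood at rank 13 of the 345 listed genes.

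The median log2 fold change of the 6 genes was 2.89, beside 1.87 over all 345 listed genes. The latter includes the 55 genes called lower, while all 6 members were called higher. The median of the raised genes alone lies above 1.87, so the distances given here overstate how far a member stands above other raised genes. As deposited, Dusp1, Dusp5, Ptpn5 and Ptpn14 lay 1.15, 1.16, 0.91 and 3.65 above the median of all genes, while Dusp8 lay 0.0090 above it. TMM factors shifted the median of all genes by -1.39 and column totals by -0.60. All 6 fold changes stayed above 0 with either scaling, as did the median of all genes (0.48 with TMM factors). With TMM factors Dusp2 (0.079, standard error 0.119) and Dusp8 (0.56, standard error 0.387) were not separated from 0 (limma, adjusted p = 0.59 and 0.26). Relative to the shifted median Dusp1 lay 1.06 and 1.11 above it and Dusp2 0.40 and 0.35 below it.

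**Figure D2:**
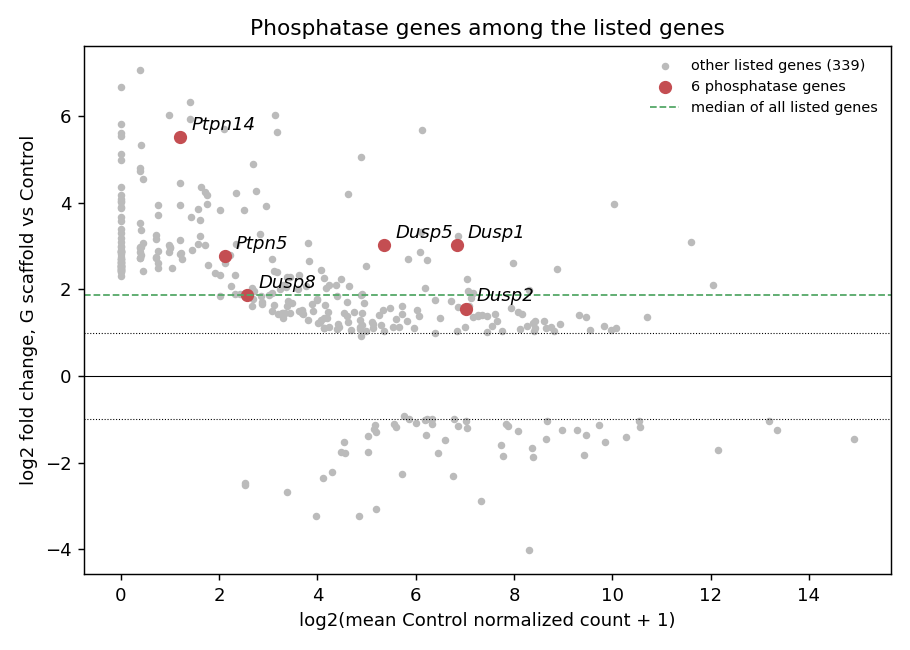
Each point is one of the 345 listed genes, with log2(mean Control normalized count + 1) on the horizontal axis and the limma log2 fold change (G scaffold vs Control) on the vertical axis; dotted lines mark 1 and -1 and the dashed line the median of 1.87. Dusp1 and Dusp5 lie at 3.02 among genes of moderate Control level, Dusp2 at 1.56 lies under the median, and Ptpn14 at 5.52 lies among genes with few Control reads.

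Levels of different genes were compared per kilobase of the gene length in the table. The summed level of the 6 genes was 124 ± 2.68 normalized counts per kb in Control against 684 ± 27.4 in the G scaffold group (SD, n = 3). In Control, Dusp2 was first with 63.8 ± 1.26 per kb, and Dusp1 second with 42.2 ± 4.23. In the G scaffold group the order of these 2 genes was inverted, with Dusp1 at 343 ± 19.9 and Dusp2 at 189 ± 16.3 per kb. Dusp5 came next in both groups, at 16.1 ± 2.49 and 133 ± 9.54 per kb. The libraries of these neighbouring ranks did not overlap within either group. The share of Dusp1 in the 6-gene sum was 32.2% to 37.1% in Control libraries and 49.5% to 51.1% in G scaffold libraries. The share of Dusp2 was 50.2% to 53.0% and then 26.1% to 28.9%.

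The 3 low genes together made up a small part of the sum. In Control, Dusp8 (1.03 ± 0.505 per kb) and Ptpn5 (0.940 ± 0.284) did not differ beyond their spread, and Ptpn14 was at 0.0985 ± 0.108. In the G scaffold group Ptpn5 (7.97 ± 1.22 per kb) and Ptpn14 (6.82 ± 0.696) did not differ beyond their spread, and Dusp8 was last at 4.03 ± 0.510. Ptpn14 is the longest of the 6 at 13357 bases, and its 91.1 normalized counts are therefore a low level per length.

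**Figure D3:**
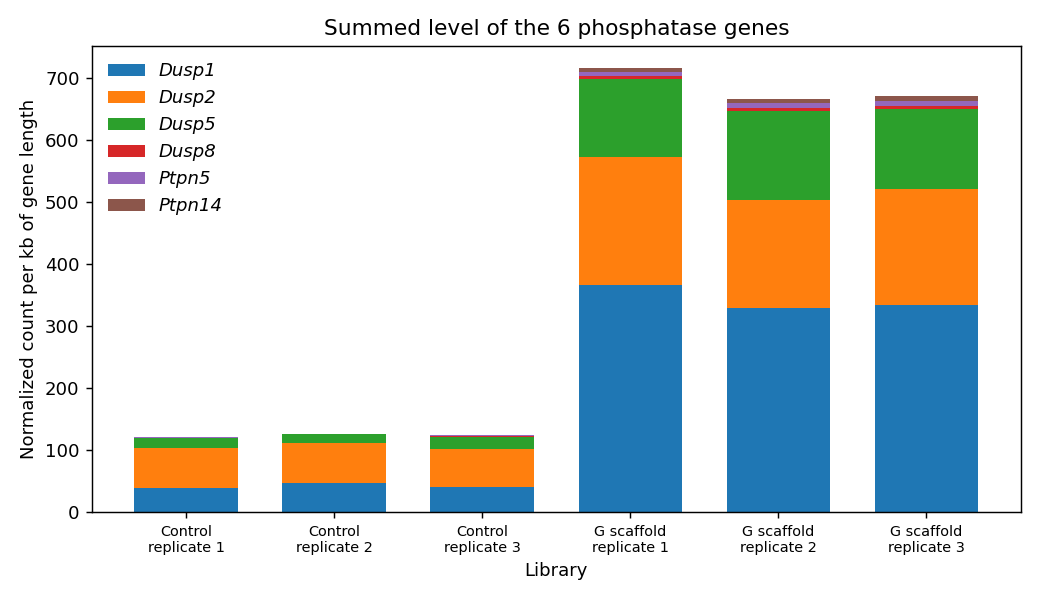
Stacked bars give, for each of the 6 libraries on the horizontal axis, the normalized count per kb of gene length of each phosphatase gene. The Control bars reach 121 to 127 with Dusp2 as the thickest layer, and the G scaffold bars reach 666 to 716 with Dusp1 as the thickest layer.

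The ratio of one gene to another within a library does not depend on the size factor, apart from the added count of 1. Of the 15 pairs of members, 11 (73.3%) had log2 ratios that did not overlap between the groups, beside 66.9% of all 59340 pairs of listed genes, so the share for the members is near the background. For Dusp1 to Dusp2, the log2 ratios were -0.29, -0.036 and -0.20 in Control against 1.25, 1.34 and 1.26 in the G scaffold group. The difference between the group means was 1.46 (standard error 0.0804). For Dusp1 to Dusp5, they were 1.42, 1.84 and 1.20 in Control against 1.65, 1.31 and 1.47 in the G scaffold group. These overlapped, and the group means differed by -0.0080 (standard error 0.213). For Dusp2 to Dusp5, the group means were 1.66 and 0.19, without overlap. The other overlapping pairs were Dusp1 with Ptpn5, Dusp5 with Ptpn5, and Dusp2 with Dusp8. An exact permutation test of 3 against 3 libraries cannot go below a two-sided p of 0.10, so no pair could pass 0.05.

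For each member the listed gene with the most similar pattern was found among 194 named genes with a mean of at least 20, as the smallest root mean square difference of centred log2(normalized count + 1) over the 6 libraries. For both Dusp1 and Dusp5 this was Mt1, a metallothionein gene, at 0.164 and 0.167. For Dusp2 it was Ier3, at 0.0650. Ier3 had 269 ± 5.48 normalized counts in Control against 759.6 ± 91.7 in the G scaffold group. Dusp8 was closest to Stab1 (0.209) and Ptpn5 to Dusp5 (0.214). Ptpn14 was closest to Hbegf, which encodes a growth factor of the EGF family, at 0.312. Hbegf had 3.29 ± 2.11 normalized counts in Control against 207 ± 15.3 in the G scaffold group. This measure counts the group difference along with the spread within groups.

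In the table's coordinates Dusp1 lies on chromosome 17 from 23431017 to 23433943 (minus strand), Dusp2 on chromosome 2 from 128007349 to 128009562 (plus strand) and Dusp5 on chromosome 19 from 51504870 to 51517852 (plus strand). Dusp8 lies on chromosome 7 from 132808493 to 132825138 and Ptpn5 on the same chromosome from 35060082 to 35118631, both on the minus strand. Ptpn14 lies on chromosome 1 from 193053929 to 193203382 (plus strand). Their identifiers, MGP_SPRETEiJ_G0022194, MGP_SPRETEiJ_G0025174, MGP_SPRETEiJ_G0023994, MGP_SPRETEiJ_G0031823, MGP_SPRETEiJ_G0030876 and MGP_SPRETEiJ_G0015836 in the order just given, belong to the annotation of the SPRET/EiJ strain. The submitters' processing notes name GRCm38 and mm10 instead. The table's positions nevertheless differ from those of the promoter windows, which are of GRCm38.p6. Dusp1, for example, spans 23431017 to 23433943 in the former, and its window spans 26508423 to 26508722. The nearest other listed gene was 343861 bases from Ptpn14 (Kcnk2) and at least 1081318 bases from each of the others. In GENCODE M21, genes on the opposite strand overlap Dusp1 (Ergic1 by 640 bases and the pseudogene Gm8225 by 956), Dusp5, Dusp8, Ptpn5 and Ptpn14, but none overlaps Dusp2. Other genes overlap Dusp1 (by up to 1853 bases), Ptpn5 and Ptpn14 on the same strand, where strand could not separate the reads. The gene with the overlap of 1853 bases is classed as sense intronic in GENCODE. All these overlaps are of whole gene spans in GENCODE, introns included. Exons were not compared, so how many reads they concern was not tested. Whether counting used strand is not given in the sources used here, so reads of the opposite-strand overlaps cannot be told apart either.

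The table gives a protein domain class for each gene, and 8 listed genes carry the class of dual-specificity or tyrosine phosphatases. These are the 6 members, Dusp14 and Dusp27, and the limma test called all 8 higher, as it did 82.6% of all listed genes. Dusp14, a small phosphatase without the kinase-binding domain of the MAP kinase phosphatases, had 2.98, 3.25 and 3.82 normalized counts in Control, against 22.2, 24.1 and 31.3 after treatment. Its log2 fold change was 2.62 (standard error 0.176, adjusted p = 3.07e-05, limma). Dusp27, a catalytically inactive family member known from muscle, had 1.99, 3.25 and 0.955 in Control against 24.2, 38.6 and 44.1 in the G scaffold group, with a log2 fold change of 3.61. Both were also called with TMM factors (1.31 and 2.38). Of 10 MAP kinase phosphatase genes on a list from general knowledge, 4 were in the table, the Dusp members above. Of 35 other dual-specificity phosphatases 2 were listed, and of 17 non-receptor tyrosine phosphatases 2 (Ptpn5 and Ptpn14). No gene of 21 receptor tyrosine phosphatases was listed. Genes that are not in the table were not analysed here.

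The wider MAP kinase pathway is given from ligands to transcription factors, on lists from general knowledge. Of all listed genes 82.6% were called higher as deposited, 55.4% with column totals and 39.1% with TMM factors, and nothing about a list is read from counts that the selection of the table largely fixes. Both scalings are set by the listed genes themselves, so calls lost or values below 0 with them do not decide whether a gene changed. Of 56 ligands and receptors 5 were listed and called higher, Vegfa, Hbegf, Il1r1, Igf1r and Areg. With TMM factors Vegfa fell to -0.44 and was not called while the other 4 were. Il1r1, Igf1r and Areg had 0 reads in every Control library and means of 5.92, 4.91 and 4.58 normalized counts in the G scaffold group. A count of 0 stays 0 under any scaling, so their kept calls say little. Hbegf rose by 5.70 on the log2 scale. Of 54 kinases 1 was listed, Mapk12, a p38 kinase, with a log2 fold change of 1.46 that was 0.073 and not called with TMM factors. Of 33 adaptors and inhibitors 6 were listed and called higher, and 2 of them with TMM factors, where Errfi1 went to -0.20. The 4 with the highest levels were Gadd45b, Ier3, Gadd45g and Errfi1, an inhibitor of EGF receptors, which rose from 201 ± 15.8 to 487 ± 38.2 normalized counts. Of 43 transcription factors 10 were listed and called higher, 5 with column totals and 2 with TMM factors, and 4 of the 10 fell below 0 with TMM factors. The 4 with the highest levels were Egr1, Ier2, Fos and Nr4a1. Egr1, an early target of ERK, rose by 2.48 on the log2 scale (0.997 and not called with TMM factors), from 467 ± 17.3 to 2610.5 ± 179 normalized counts. Ier2 rose from 749 ± 54.2 to 1565 ± 165, a log2 fold change of 1.06 that became -0.42 with TMM factors.

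**Figure D4:**
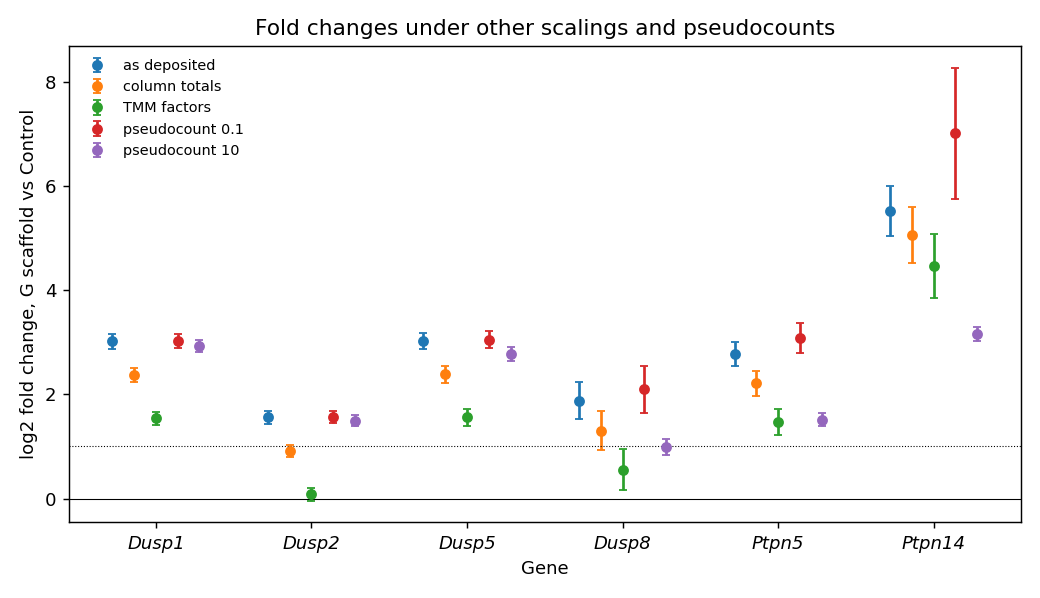
Points give the limma log2 fold change (G scaffold vs Control, vertical axis) of each phosphatase gene with its standard error, as deposited, with column totals, with TMM factors, and with pseudocounts of 0.1 and 10. All points lie above 0, but with TMM factors Dusp2 drops to 0.079, less than its standard error of 0.119, and Dusp8 to 0.56. Ptpn14 runs from 3.16 to 7.01.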

How the data were processed

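Gene expression was measured by RNA-seq in 3 Control and 3 G scaffold samples. The sample titles mark each library as C or Zn with a replicate number. The authors' paper compares G scaffold extract with Control, so Zn was taken as the G scaffold group. The authors deposited normalized counts, a signal made by dividing the reads of a gene by one size factor per library. All values (100%, within 0.01 reads) are whole multiples of the value of 1 read, so reads were recovered. The size factors lie between 0.924 and 1.05. The aligner and counter are not given in the sources used here. The authors also deposited group means, log2 fold changes and p-values of their own comparison, which were not used. The table holds 345 genes past the authors' thresholds, so its totals are not depth. Its gene positions and lengths (329 SPRET/EiJ identifiers) are in bases.

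The test was limma 3.58.1 in R 4.3.3 on log2(normalized count + 1), fitted to group alone, and p-values were adjusted by Benjamini-Hochberg over 345 genes. Alternatives were edgeR 4.0.16 and DESeq2 1.42.0 on recovered reads, TMM factors, column totals, pseudocounts 0.1 and 10, a minimum of 10 in every library, a replicate block and each library left out. The tests were also run on simulated counts, whose means and spread were taken from these data. The members and lists were chosen with earlier results of these data known. Named genes are the 6 members, all listed phosphatases, up to 4 genes of highest mean from each other list, and the most similar gene for each member. Genes named besides these (Mpeg1, Col1a1, Tubb3, Kcnk2, Ergic1, Gm8225 and Areg) were named after their values were seen. Within a group, each pair of replicates differed beyond counting error (chi-square per gene from 2.76 to 6.79). Figures were drawn with matplotlib 3.10.9.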

Additional observations from a re-analysis of the deposited data

How the results depend on the processing

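The 6 phosphatase genes stayed above 0 in every alternative that gave them a value, and 77 of 81 such values kept the call. The 4 exceptions were Dusp2 with TMM factors (0.079) and column totals (0.91), and Dusp8 with TMM factors (0.56) and a pseudocount of 10 (0.99). The 2 values with TMM factors had standard errors of 0.119 and 0.387 and were not separated from 0. TMM takes most genes as unchanged, which a table of called genes does not meet. Column totals take the summed reads of the listed genes as equal between libraries, which such a table does not meet either. Leaving out 1 library at a time gave 2.96 to 3.10 for Dusp1, 1.49 to 1.61 for Dusp2, 2.93 to 3.14 for Dusp5, 1.47 to 2.11 for Dusp8, 2.56 to 2.90 for Ptpn5 and 5.02 to 5.99 for Ptpn14, with no call lost. The minimum of 10 in every library removes Dusp8, Ptpn5 and Ptpn14. Over all listed genes 285 were called higher and 55 lower. Leaving out 1 library at a time gave 276 to 283 higher, so kept calls are usual in this table and say nothing particular about the members. TMM factors gave 135 higher, and the minimum of 10 gave 115 among the 161 genes left. edgeR and DESeq2 each gave 287 higher and 58 lower, which is every one of the 345 listed genes. The member calls kept there, which count among the 77, therefore say nothing particular about the members. With the replicate number as a block, 284 were called higher and 55 lower, and all 6 phosphatase genes kept their calls. Same-numbered libraries did not deviate together (correlations from -0.071 to 0.0047), so the numbers were not taken to pair samples. The gene lists under TMM factors and column totals were added after the values were seen. Dusp8, Ptpn5 and Ptpn14 rest on 15, 10 and 4 Control reads in all, which limits their fold changes.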
